A study of Homo sapiens with 6 samples.

Results

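The CCT (TRiC) chaperonin is built from 8 different subunits, and the 8 genes that encode them are TCP1, CCT2, CCT3, CCT4, CCT5, CCT6A, CCT7 and CCT8. The genes were chosen by name, and all 8 were listed in all 6 libraries among the 11048 genes measured by mRNA sequencing. The cells were MM1.S, an established human multiple myeloma line that was not genetically altered for this experiment. One group received DMSO as vehicle, one received 3 µM CCF642 and one received 3 µM CCF642-34, each for 6 h and with 2 libraries per group. Both compounds are described by the study as inhibitors of PDIA1, the disulfide isomerase of the endoplasmic reticulum, and the sequencing asked how the expression responses to them differ. A single cell line at a single dose and time was measured. The labels do not say whether the libraries of a group came from separate cultures, so the spread between them may be technical. The p values rest on that spread, mostly as shared over all genes rather than that of each gene alone.

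CCT is a cytosolic chaperonin that folds newly made proteins inside a closed chamber, using ATP. The complex is a barrel of stacked rings, and each ring holds every subunit once in a fixed order, which runs CCT2, CCT4, TCP1, CCT3, CCT6A, CCT8, CCT7 and CCT5. Actin and tubulin are its best known substrates, and many proteins with WD40 propellers also depend on it. Prefoldin hands unfolded actin and tubulin to CCT, and phosducin-like proteins act as its co-chaperones. HSF1, the master regulator of the heat shock response, drives many cytosolic chaperone genes, and promoters of genes of this kind carry heat shock elements made of inverted repeats of GAA.

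The subunit genes are scattered over 7 chromosomes (GRCh38, GENCODE 29). TCP1 lies at chr6:159778498-159789749, CCT2 at chr12:69585334-69601570, CCT3 at chr1:156308968-156367873 and CCT4 at chr2:61868089-61888804. CCT5 lies at chr5:10249921-10266412, CCT6A at chr7:56051630-56063989, CCT7 at chr2:73233420-73253021 and CCT8 at chr21:29055805-29073797. Promoter windows of 300 bases (250 before to 50 after a RefSeq start, GRCh38.p14) were given for 7 of the 8 genes, 9 windows in all. CCT6A had none. They were searched on both strands for TTCNNGAA and GAANNTTC, the inverted repeats of a heat shock element, which can overlap each other, for the E-box CACGTG, and for the CCAAT box. The CCT5 window (chr5:10250287-10250586) lay inside the gene, downstream of its annotated start at 10249921. The bases upstream of that annotated start were not searched. The windows of CCT3 and CCT7, and that of the second CCT2 start, also lay wholly inside their annotated genes. The lack of a match for CCT5 and CCT7 thus holds for these windows only. The matches found are printed below because the subunits did not move as one group, and they show which of these letters each window has. Each line holds 30 bases on the strand of the gene, with the matched motif in capitals, and ATTGG is CCAAT read from the other strand.
CCT4, TTCNNGAA, chr2:61888607-61888636: cccgacgccggcgccgctTTCTGGAAggtt
TCP1, GAANNTTC, chr6:159789815-159789844: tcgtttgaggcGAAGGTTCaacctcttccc
CCT2, GAANNTTC, second start, chr12:69585789-69585818: cccggagcgaaGAAATTTCtagtgtgggac
CCT8, CCAAT, chr21:29073694-29073723: aagggtgggctaATTGGagagccaggaaga
CCT2, CCAAT, first start, chr12:69585356-69585385: gcccgtggggctCCAATcaaaatgggacgc
TCP1, CCAAT, chr6:159789739-159789768: atcggctatctaATTGGacaaaaatgccga
CCT3, CCAAT, chr1:156338350-156338379: ctaaggctgtcaATTGGtctgtttttgtgc
CCT3, CCAAT, chr1:156338309-156338338: atgggtgcggtgATTGGcgactaccttgag

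Counted from the first transcribed base, the TTCNNGAA match of CCT4 began at position 39 of the more downstream of its 2 starts. The window of its other start held no match. The GAANNTTC match of TCP1 began at position -231 and that of CCT2, from its second start, at position -89. The CCAAT match of CCT8 began at position -63. TTCNNGAA was found in 1 of the 9 windows and in 7.74% of all 35116 RefSeq promoter windows. GAANNTTC was found in 2 of the 9 and in 6.77% of all, CACGTG in 0 of the 9 and in 7.26% of all, and CCAAT in 4 of the 9 and in 34.6% of all. Of 25 windows for 16 other cytosolic chaperone genes and their co-chaperones known as HSF1 targets, 7 held TTCNNGAA and 9 held GAANNTTC. A match is a description of letters in a window, not a binding site. The 250 bases upstream of the start are printed for CCT8 and CCT4, since these 2 genes had the largest increases with either compound. For CCT4 they run from the more upstream of its 2 starts. Matched motifs are again in capitals, and the CCT4 stretch holds none.
CCT8, chr21:29073649-29073898, minus strand: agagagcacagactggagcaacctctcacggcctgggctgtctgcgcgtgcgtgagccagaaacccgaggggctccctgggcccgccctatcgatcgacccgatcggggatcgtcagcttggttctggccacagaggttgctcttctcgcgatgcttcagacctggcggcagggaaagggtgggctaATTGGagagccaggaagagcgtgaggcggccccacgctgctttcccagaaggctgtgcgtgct
CCT4, chr2:61888672-61888921, minus strand: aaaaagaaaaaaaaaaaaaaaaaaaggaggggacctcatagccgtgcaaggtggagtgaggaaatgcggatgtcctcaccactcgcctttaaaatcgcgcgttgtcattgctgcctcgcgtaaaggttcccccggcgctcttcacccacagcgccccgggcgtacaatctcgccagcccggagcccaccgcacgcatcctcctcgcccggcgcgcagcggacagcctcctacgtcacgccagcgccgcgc

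The libraries held between 20567313 and 28459677 reads, as recovered from the deposited CPM. Each subunit gene received between 3631 and 14406 reads per library, which gives a counting error of 1.66% to 0.833% per value. Levels are given as TMM-scaled CPM (scaled CPM). CPM are the reads of a gene relative to the total of its library, and scaled CPM are the deposited CPM divided by a factor that centres the bulk of the genes of a library on those of the others. The factor was 1.05 for both vehicle libraries, 0.962 and 0.957 in the CCF642 group, and 0.987 and 0.992 in the CCF642-34 group. When only library size was used, all genes together had a median log2 fold change of -0.13 (CCF642) and -0.08 (CCF642-34) against DMSO, compared with -0.01 and 0.01 after TMM scaling, so each change below is relative to the bulk of the genes. All 8 plasma cell markers looked up were listed. Of them, 3 rose and 5 fell with CCF642, while 1 rose and 5 fell with CCF642-34. The shares of all genes called in either direction were 63.1% and 57.6%. SDC1, the syndecan that marks plasma cells, fell by 1.67 and by 1.12 on the log2 scale, and IRF4, a transcription factor they require, rose by 0.90 and 1.11. The part of these changes in the CCT values was not tested. In bulk RNA, fewer cells expressing a gene and less of its RNA per cell cannot be told apart. Of 6 markers of T cells, monocytes and epithelium, CD3D, CD14 and LYZ were not listed, and CD3E, EPCAM and KRT8 had group means of at most 2.80 scaled CPM.

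CCT8 and CCT4 rose with both compounds, CCT2 fell with both, and CCF642-34 also lowered CCT6A. TCP1 and CCT7 differed between the compounds, in opposite directions, while CCT3 and CCT5 passed no test. Every change was small. The largest was the increase of CCT8 with CCF642-34, of 24.5%. The proportions of the 8 mRNAs to each other thus differed between the groups.

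**Figure D1:**
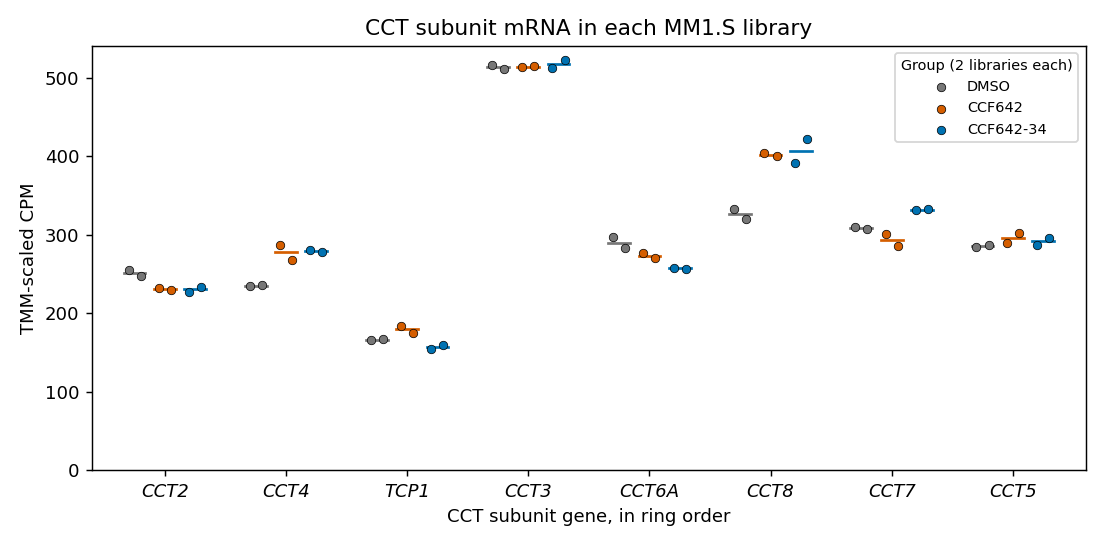
TMM-scaled CPM (y axis) of the 8 CCT subunit genes (x axis, in ring order) in each of the 6 libraries, with points for libraries and bars for group means. CCT8 and CCT4 lie above DMSO in all 4 treated libraries, CCT2 lies below DMSO in all 4, and CCT3 stays between 510.3 and 521.8 throughout.

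CCT8 encodes the theta subunit. Its scaled CPM was 333 and 320 with DMSO, 403 and 400 with CCF642, and 392 and 422 with CCF642-34. All 4 treated libraries were above both DMSO libraries, and the libraries of the 2 compounds overlapped each other. The log2 fold change was 0.30 (SE 0.0413, 95% interval 0.22 to 0.38, limma adjusted p = 1.98e-08) with CCF642 and 0.32 (SE 0.0413, 0.23 to 0.40, adjusted p = 6.79e-09) with CCF642-34. Changes larger in size than that of CCT8 were measured for 48.3% of all genes with CCF642 and for 39.4% with CCF642-34.

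CCT4 encodes the delta subunit, one of those that touch actin in the chamber. It was measured at 235 and 236 scaled CPM with DMSO, 287 and 268 with CCF642, and 281 and 278 in the CCF642-34 libraries. The treated libraries again lay above both DMSO libraries without overlap. The increase was 17.9% with CCF642 (log2 fold change 0.24, 95% interval 0.15 to 0.32, adjusted p = 5.54e-06) and 18.8% with CCF642-34 (0.25, 0.16 to 0.33, adjusted p = 3.03e-06). CCT4 and CCT8 each passed the test in all 16 alternative fits of both comparisons, but with library size alone the changes with CCF642 were 0.10 for CCT4 (adjusted p = 0.0329) and 0.16 for CCT8 (adjusted p = 0.000557), and with CCF642-34 they were 0.16 and 0.23. COMMD1 on the opposite strand shares 81 exon bases with CCT4 and was listed at 9.96 to 14.8 deposited CPM. The antisense gene AC107081.2 shares 275 exon bases with CCT4 and was not listed.

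CCT2 encodes the beta subunit, which is also known as a receptor that carries protein aggregates into autophagy. Its scaled CPM was 255 and 247 with DMSO, 233 and 229 with CCF642, and 227 and 233 in the CCF642-34 libraries. Each treated library was below each DMSO library, and the compounds could not be told apart. CCT2 fell by 8.06% with CCF642 (log2 fold change -0.12, 95% interval -0.21 to -0.03, adjusted p = 0.0135) and fell by 8.20% with CCF642-34 (-0.12, -0.21 to -0.04, adjusted p = 0.0133). Both calls were kept in all 10 alternative fits that did not leave out a single library. Without DMSO replicate 1 the log2 fold change was -0.10 with either compound. It was also -0.10 for CCF642-34 without CCF642-34 replicate 1. The calls were lost in these fits, which leave a single library in a group. With library size alone the values were -0.25 with CCF642 and -0.21 with CCF642-34.

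CCT6A encodes the zeta subunit of most tissues. The DMSO libraries had 297 and 283 scaled CPM, the CCF642 libraries 276 and 270.2, and the CCF642-34 libraries 257 and 256. The groups stood in that order with no overlap between them. CCT6A fell by 11.2% with CCF642-34 (log2 fold change -0.17, SE 0.0424, 95% interval -0.26 to -0.09, adjusted p = 0.000520), and this call was kept in all 16 alternative fits, at -0.26 with library size alone. With CCF642 its log2 fold change was -0.08 (95% interval -0.17 to 0.0015, adjusted p = 0.0814), and with library size alone it was -0.22 and passed the test (adjusted p = 1.73e-05). Its close paralog CCT6B, a subunit best known from testis, was listed at group means of 5.47 to 6.30 scaled CPM.

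TCP1 encodes the alpha subunit, the first of the family to be described. It was measured at 165 and 167 scaled CPM with DMSO, at 183 and 175 with CCF642 and at 155 and 159.5 with CCF642-34. Both CCF642 libraries were above DMSO and both CCF642-34 libraries were below it. TCP1 rose by 7.92% with CCF642 (log2 fold change 0.11, 95% interval 0.02 to 0.20, adjusted p = 0.0389), and with CCF642-34 its log2 fold change was -0.08 (-0.17 to 0.02, adjusted p = 0.148). The increase with CCF642 was not called without DMSO replicate 1 (0.10, adjusted p = 0.176), DMSO replicate 2 (0.12, adjusted p = 0.125) or CCF642 replicate 1 (0.08, adjusted p = 0.210). With library size alone the sign with CCF642 turned, to -0.02, the value with CCF642-34 was -0.17 and passed the test (adjusted p = 0.00205), and DESeq2 for CCF642 gave 0.11 with an adjusted p of 0.0588. TCP1 shares 397 exon bases with ACAT2 on the opposite strand, which was listed at 14.1 to 21.0 deposited CPM.

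CCT7 encodes the eta subunit. Its scaled CPM was 310 and 307 with DMSO, 300.4 and 285 with CCF642, and 331 and 333 in the CCF642-34 libraries. CCT7 thus lay below DMSO in both CCF642 libraries and above it in both CCF642-34 libraries, the reverse of TCP1. It rose by 7.56% with CCF642-34 (log2 fold change 0.11, 95% interval 0.02 to 0.19, adjusted p = 0.0275), and with CCF642 it was at -0.08 (-0.16 to 0.01, adjusted p = 0.108). The call with CCF642-34 was lost without any one of its 4 libraries, namely DMSO replicate 1 (0.11, adjusted p = 0.107), DMSO replicate 2 (0.10, adjusted p = 0.162), CCF642-34 replicate 1 (0.11, adjusted p = 0.0789) and CCF642-34 replicate 2 (0.10, adjusted p = 0.1005). With library size alone it was 0.02 with CCF642-34 (adjusted p = 0.769) and -0.21 with CCF642, which passed the test (adjusted p = 2.27e-05). Without CCF642 replicate 1, CCT7 was called lower with CCF642 (-0.11, adjusted p = 0.0213).

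CCT3, the gamma subunit, had the highest level of the family. It was measured at 516 and 510.3 scaled CPM with DMSO, 513 and 514 with CCF642, and 513 and 522 with CCF642-34. Its log2 fold change was 0.0012 (95% interval -0.07 to 0.08, adjusted p = 0.981) with CCF642 and 0.01 (-0.07 to 0.09, adjusted p = 0.826) with CCF642-34, and both intervals lay below those of CCT8. CCT5, the epsilon subunit, in which mutations are known to cause a hereditary sensory neuropathy, was at 285 and 287 with DMSO, 289 and 302.4 with CCF642, and 287 and 296 in the CCF642-34 libraries. The groups of CCT5 lay close together, and its log2 fold changes were 0.05 (-0.04 to 0.13, adjusted p = 0.323) and 0.03 (-0.06 to 0.11, adjusted p = 0.591). The signs of both genes turned with library size alone, at which CCT3 was at -0.13 with CCF642 and passed the test.

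Counted over the family, 3 subunits were higher and 1 lower with CCF642 at an adjusted p under 0.05. Of all 11048 genes, 31.8% were called higher and 31.3% lower, 63.1% in all. With CCF642-34, 3 subunits were higher and 2 lower, against 29.7% and 27.9% of all genes, 57.6% in all. The shares of subunits called were thus near those of all genes in both comparisons. Both comparisons use the same DMSO libraries. The libraries of the groups did not overlap for 7 of the 8 subunits with CCF642 and for 6 with CCF642-34, beside 79.4% and 78.9% of all genes. The median size of the log2 fold change was 0.0969 over the subunits and 0.288 over all genes with CCF642. With CCF642-34 it was 0.114 and 0.246. By mean CPM the subunits ranked between 277 and 1338 of the 11048 genes, and these medians were not matched for expression level. The largest log2 fold change of a subunit was 0.32, while a change of at least 2-fold at an unadjusted p under 0.05 was reached by 6.49% of all genes with CCF642 and by 3.87% with CCF642-34.

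**Figure D2:**
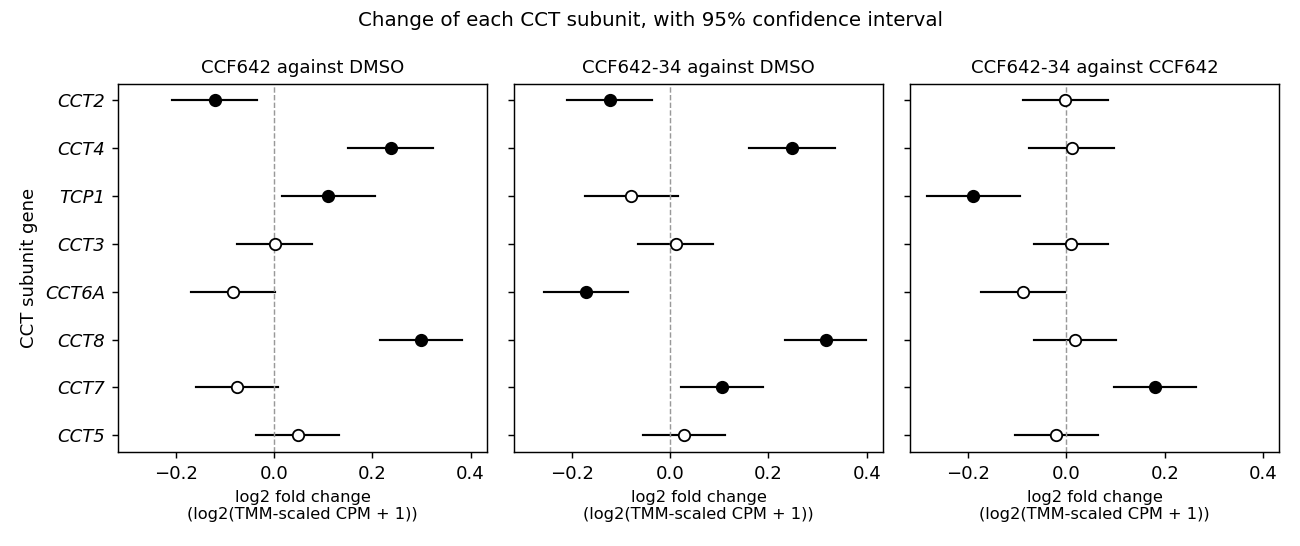
Log2 fold change (x axis, on log2 of TMM-scaled CPM plus 1) of each CCT subunit (y axis, in ring order) in the 3 comparisons, with 95% confidence intervals as lines and filled points for an adjusted p under 0.05. CCT8 and CCT4 are right of 0 and CCT2 left of 0 against DMSO with either compound, while TCP1 (-0.19) and CCT7 (0.18) are the filled points when the compounds are set against each other, and the signs of TCP1, CCT3 and CCT5 with CCF642 turn when only library size is used.

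When the compounds were compared with each other at the same dose and time, TCP1 and CCT7 differed. TCP1 was 12.3% lower with CCF642-34 than with CCF642 in the fit, a log2 difference of -0.19 (SE 0.0471, 95% interval -0.28 to -0.09, adjusted p = 0.00142). CCT7 was 13.4% higher with CCF642-34, a log2 difference of 0.18 (SE 0.0415, 95% interval 0.10 to 0.26, adjusted p = 0.000564). For both genes the 2 libraries of one compound were clear of the 2 of the other, and both passed in all 16 alternative fits. CCT6A had a log2 difference of -0.09 (-0.17 to -0.0031, adjusted p = 0.105), also with no overlap of libraries. The other 5 subunits had overlapping libraries, and over the 6 subunits that did not pass, the 95% intervals of the differences all lay between -0.17 and 0.10. For CCT8 the difference was 0.02 (-0.07 to 0.10) and for CCT4 it was 0.01 (-0.08 to 0.10). With 1 subunit called higher and 1 lower, the family stood beside 15.9% of all genes higher and 17.4% lower, 33.4% in all. The libraries of the 2 compounds did not overlap for 3 of the 8 subunits and for 63.4% of all genes, and a 2-fold difference was reached by 0.308% of all genes. The median size of the difference was 0.0190 for the subunits and 0.146 for all genes, again not matched for expression level.

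Because every assembled ring takes 1 copy of each subunit, the share of each subunit in the summed CCT reads of a library was also computed. This share does not depend on how the libraries were scaled, but the 8 shares sum to 100%, so a rise in one lowers the others. CCT8 went from 13.7% ± 0.228 (SD, n = 2) with DMSO to 16.3% ± 0.1001 with CCF642 and 16.5% ± 0.591 with CCF642-34. CCT4 went from 9.90% ± 0.139 to 11.3% ± 0.408 and 11.3% ± 0.258. The shares of both risers were clear of DMSO in all treated libraries. CCT2 went from 10.6% ± 0.107 to 9.36% ± 0.00768 and 9.32% ± 0.0225, and CCT6A from 12.2% ± 0.272 to 11.1% ± 0.0377 and 10.4% ± 0.198. CCT7 was at 12.98% ± 0.0611, 11.9% ± 0.302 and 13.4% ± 0.170, and TCP1 at 6.99% ± 0.124, 7.27% ± 0.157 and 6.35% ± 0.0362. On this measure too the order of the compounds was opposite for TCP1 and CCT7. CCT3 held 21.6% ± 0.0665, 20.8% ± 0.274 and 20.9% ± 0.0887, lower in all 4 treated libraries than with DMSO, while its scaled CPM did not pass the test. CCT5 held 12.0% ± 0.217, 12.0% ± 0.523 and 11.8% ± 0.0650, with the CCF642 libraries overlapping both other groups.

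**Figure D3:**
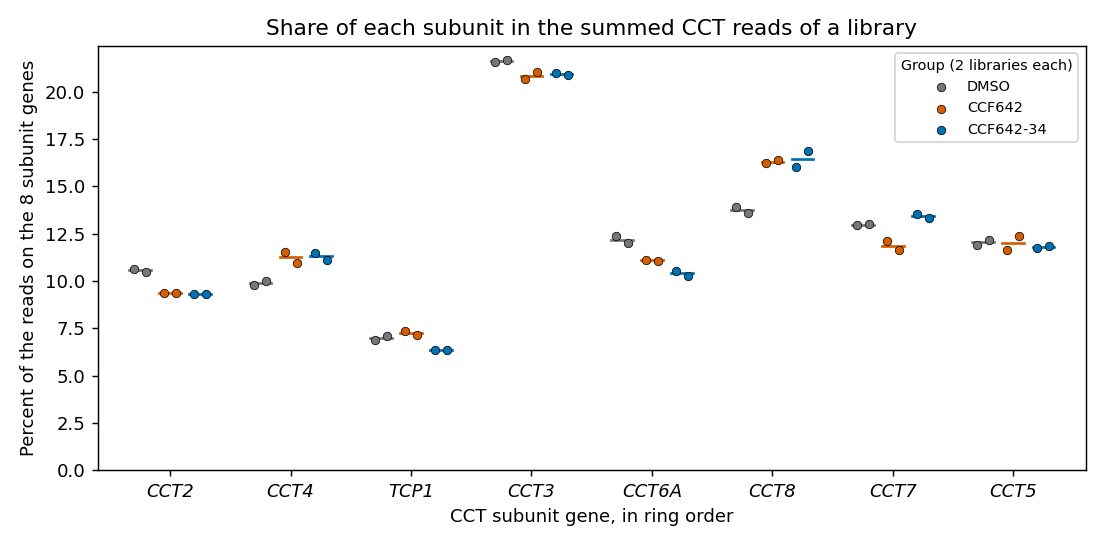
Share of each CCT subunit gene (x axis, in ring order) in the reads on all 8 subunit genes of a library (y axis, percent), with points for the 6 libraries and bars for group means. The share of CCT8 steps from 13.7% with DMSO to 16.3% and 16.5% with the compounds, and that of CCT2 from 10.6% to 9.36% and 9.32%.

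The sum of the 8 subunits was 2376 ± 27.2 scaled CPM (SD, n = 2) with DMSO, 2464 ± 29.3 with CCF642 and 2471 ± 41.3 with CCF642-34, which is 3.73% and 4.01% above DMSO. In deposited CPM the sums were 2502 ± 30.6, 2365 ± 37.9 and 2445 ± 48.5, so that the sum fell by 5.49% and fell by 2.28% on that scale. The direction of the sum thus depended on the scaling, and no test was made of it.

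Levels of different genes were compared per kilobase of the principal transcript, whose length ran from 1916 bases for CCT7 to 3675 for CCT5. With DMSO the order was CCT3 (239 ± 1.99 scaled CPM per kb, SD, n = 2), CCT8 (163 ± 4.56), CCT7 (161 ± 1.08), CCT2 (123 ± 2.65), CCT6A (107 ± 3.60), CCT4 (93.3 ± 0.241), CCT5 (77.8 ± 0.512) and TCP1 (66.4 ± 0.419). By this length CCT8 and CCT7 did not differ beyond their spread, and the other neighbours did. With the compounds CCT8 stood clear of CCT7, at 200.3 ± 1.16 against 153 ± 5.70 with CCF642 and 203 ± 10.7 against 173 ± 0.708 with CCF642-34. On this measure CCT4 passed CCT6A with both compounds, at 110.1 ± 5.30 against 100.5 ± 1.54 and 111 ± 0.680 against 94.5 ± 0.219. Its libraries then overlapped those of CCT2. The ratio of CCT3 to TCP1, the ends of the order, was 3.60 in the DMSO group, 3.33 with CCF642 and 3.83 with CCF642-34. The order depends on which exons are counted. Per kilobase of all annotated exons, CCT2 stood at 58.1 with DMSO, below CCT4 at 83.1 and CCT6A at 74.3. CCT4 was thus above CCT6A already with DMSO, and CCT8, at 97.7, was above CCT7, at 85.9. CCT3 remained highest at 127.8 and TCP1 lowest at 33.7.

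**Figure D4:**
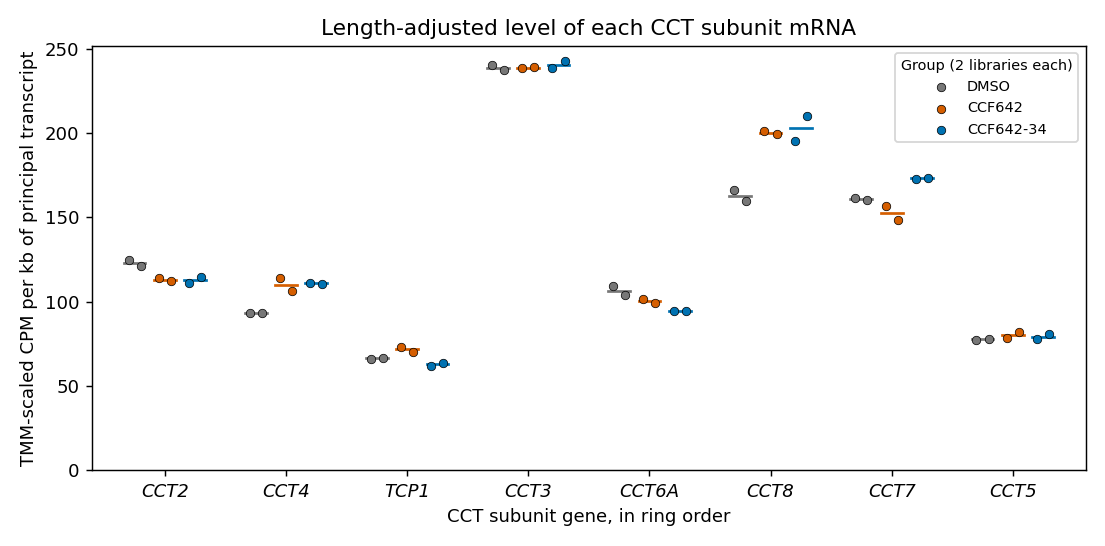
TMM-scaled CPM per kilobase of the principal transcript (y axis) for the 8 CCT subunit genes (x axis, in ring order), with points for the 6 libraries and bars for group means. CCT3 is highest near 239 and TCP1 lowest at 62.8 to 71.7 in every group. On this length scale CCT8 lies level with CCT7 with DMSO and above it with either compound.

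A search of GENCODE for symbols that mark a pseudogene of a CCT gene found 13 copies, mostly processed pseudogenes. They were 4 of CCT6A, 2 each of TCP1, CCT4, CCT5 and CCT7, and 1 of CCT8. Copies under other names were not searched for. None of the 13 was listed, and how reads that match both a gene and its copy were counted is not given in the sources used here, so their contribution to the values was not tested. The same holds for genes on the opposite strand, since no strand setting is stated. Among them AC012640.4, an antisense gene that was not listed, shares 1757 exon bases with CCT5.

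The genes whose pattern over the 6 libraries was nearest to the mean profile of the subunits, by Euclidean distance of centred log2 values among 5951 candidates, were AIFM1 (distance 0.0266), CCDC47 (0.0372), SNX2 (0.0393), ATP11B (0.0406) and FAM122A (0.0432). The mean profile is almost flat, and these are genes with almost no change, with log2 fold changes against DMSO of 0.02 to 0.07 each. Among the subunits CCT3 (0.0563) and CCT5 (0.0732) lay nearest to it and CCT8 (0.308) and CCT4 (0.235) farthest, so the mean profile describes few of the members.

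Genes that work with CCT, and its substrates, were looked up in named lists. The counts of all lists stand beside 63.1% of all genes called in either direction with CCF642 and 57.6% with CCF642-34. Of the 5 listed prefoldin subunits, 2 rose and 1 fell with CCF642 (median log2 fold change 0.08), and 4 rose with CCF642-34 (median 0.23). PFDN2 rose with both, from 41.7 and 40.9 scaled CPM with DMSO to 67.0 and 57.5 with CCF642 and 68.1 and 64.7 with CCF642-34, log2 fold changes of 0.58 (adjusted p = 5.82e-10) and 0.67 (adjusted p = 1.16e-11). PFDN4 rose by 0.30 and 0.69 on the log2 scale. VBP1 fell by 0.20 with CCF642 and was at 0.04 with CCF642-34. In the direct test 4 of the 5 genes were higher with CCF642-34 than with CCF642, beside 15.9% of all genes, PFDN4 by 0.39 (adjusted p = 0.000118), PFDN1 by 0.25 (adjusted p = 0.00221), VBP1 by 0.24 (adjusted p = 0.000682) and PFDN5 by 0.14 (adjusted p = 0.0438).

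Among the 4 co-chaperones, PDCL3, a phosducin-like protein, fell by 0.78 with CCF642 (adjusted p = 9.47e-09) and fell by 0.35 with CCF642-34, with a direct difference of 0.43 (adjusted p = 0.00122). TXNDC9, another phosducin-like protein, rose by 0.45 and 0.56. PDCD5, which binds CCT, fell by 0.18 with CCF642 and was at 0.07 with CCF642-34, and PDCL, which brings G protein beta subunits to CCT, was at -0.10 and -0.17 and passed neither test. Of the 5 tubulin cofactors, which take tubulin on after CCT, 1 rose and 1 fell with CCF642 and 3 rose and 1 fell with CCF642-34. TBCE rose by 0.59 and 0.79 and TBCD fell by 0.25 and by 0.33 on the log2 scale. These partners moved in both directions with CCF642 and by more than any CCT subunit in several cases.

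Several substrate genes changed by more than any CCT subunit. ACTB, beta-actin, was at 4649 and 4703 scaled CPM with DMSO, 2367 and 2616 with CCF642 and 2520.0 and 2424 with CCF642-34. ACTG1, gamma-actin, which was added after its values were seen, was at 3262 and 3267, then 1891 and 2008, and 1876 and 1835. Both cytoplasmic actins were lower in every treated library, by -0.91 and -0.92 for ACTB and -0.74 and -0.81 for ACTG1 on the log2 scale. Over the 12 listed actin and tubulin genes, 4 rose and 6 fell with CCF642 and 3 rose and 6 fell with CCF642-34 (medians -0.15 and -0.11). The minor beta-tubulin genes TUBB2A and TUBB2B rose by 1.70 and 0.93 with CCF642 and by 1.34 and 1.37 with CCF642-34, from DMSO means of 3.77 and 14.5 scaled CPM. Actin and tubulin genes have near-identical copies, and the split of reads between them is uncertain. Of 16 substrates with WD40 propellers or other known dependence on CCT, 6 rose and 5 fell with CCF642. With CCF642-34, 7 rose and 4 fell. These counts stand beside 63.1% and 57.6% of all genes called in either direction. PLK1, a mitotic kinase, fell by 1.81 and by 1.23, CCNE1, cyclin E1, fell by 1.58 and by 1.76, and STAT3 rose by 0.67 and 0.55.

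The family was set beside other chaperones, several of which (the HSP70, HSP90 and HSP60 genes) also have near-identical copies that could share reads. Of 18 listed cytosolic chaperone and co-chaperone genes known as HSF1 targets, 17 rose with CCF642 and 14 rose and 1 fell with CCF642-34, and the list medians were 0.79 and 0.27 (log2 fold change). The subunit medians were 0.02 and 0.02 on the same scale, and those of all genes -0.01 and 0.01. BAG3, a co-chaperone of HSP70, was at 124 and 126 scaled CPM with DMSO, 485 and 489 with CCF642 and 287 and 284 with CCF642-34. Its increases, of 1.95 and 1.18, were the largest of the list. FKBP4, an HSP90 co-chaperone, was the gene that did not pass with CCF642 (0.10, adjusted p = 0.0507) and fell by 0.16 with CCF642-34. In the direct test 17 of the 18 were lower with CCF642-34 than with CCF642, beside 17.4% of all genes. The list median was -0.36, and the exception ST13, named for this reason after its value was seen, was at -0.03. HSPD1, the subunit of the mitochondrial chaperonin, rose from 1596 and 1575 to 2780 and 2753 with CCF642 and to 1857 and 1948 with CCF642-34, and was lower with CCF642-34 by -0.54 (adjusted p = 7.08e-18). Its partner HSPE1 rose by 0.66 with CCF642 and was at -0.06 with CCF642-34. Of the CCT subunits, TCP1 alone was lower with CCF642-34 than with CCF642 at an adjusted p under 0.05, by -0.19.

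**Figure D5:**
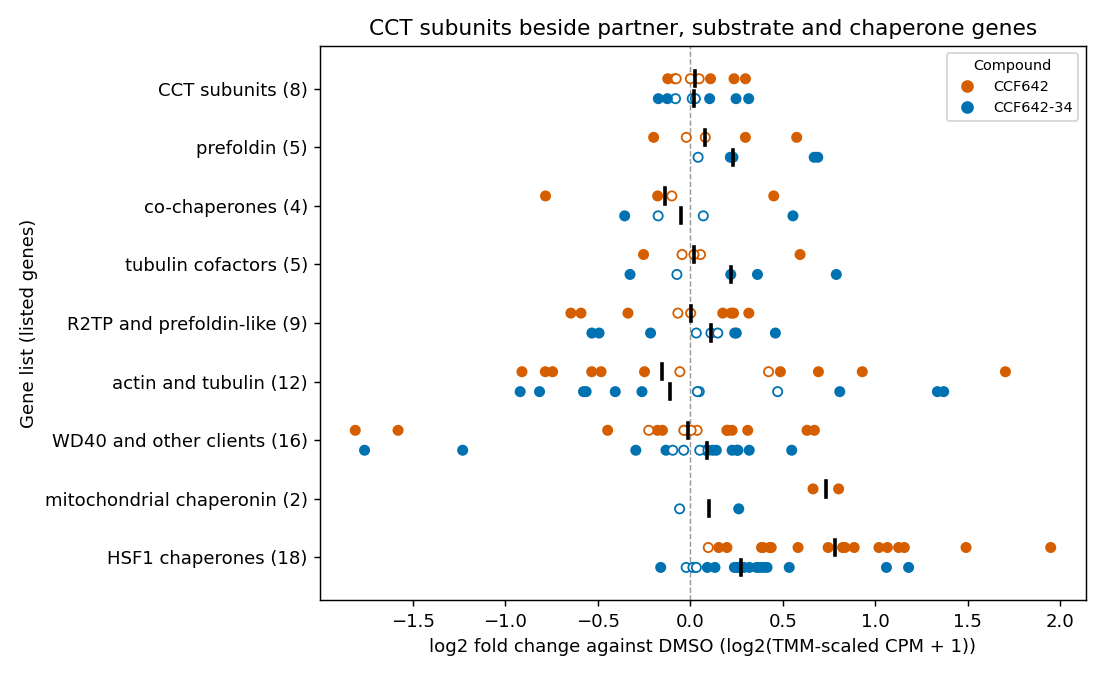
Log2 fold change against DMSO (x axis, on log2 of TMM-scaled CPM plus 1) of each listed gene of 9 gene lists (y axis, number of genes in brackets) with CCF642 and CCF642-34, with filled points for an adjusted p under 0.05 and black ticks for list medians. The CCT subunits lie between -0.17 and 0.32, while the HSF1 chaperones reach 1.95 and have medians of 0.79 and 0.27.

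HSF1 itself, which is controlled mainly as a protein, rose by 0.40 and 0.29 (adjusted p = 1.80e-10 and 5.79e-07), and HSF2, a relative of it, fell by 0.22 with CCF642 and was at -0.17 with CCF642-34 (adjusted p = 0.0810). MYC, a transcription factor of growth genes, went from a mean of 436 ± 8.96 scaled CPM (SD, n = 2) with DMSO to 105 ± 2.99 with CCF642 and 183 ± 0.861 with CCF642-34, log2 fold changes of -2.04 and -1.25. Whether these levels bear on the CCT genes was not tested.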

How the data were processed

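Oligo(dT)-enriched mRNA was sequenced from random-primed cDNA. The authors deposited CPM per gene symbol for each library. Their processing notes name STAR, hg19, edgeR (3.24.3) and limma (3.38.3), while the counting tool, annotation and strand setting are not given in the sources used here. The deposited values summed to at least 998968 in each library, so their unit was read as CPM. They were also whole multiples of a step fitted per library (100% within 0.001). Reads per gene and library totals were recovered from that step. Genes whose highest value was under 1.50 CPM were not listed. A matrix of the whole series was not used.

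Here CPM were scaled by TMM (edgeR 4.0.16) and log2(scaled CPM + 1) of all 11048 genes in the 3 groups was fitted with limma (3.58.1, R 4.3.3) with a variance trend and no block (3 residual and 42.9 prior degrees of freedom). Tests were two-sided, with Benjamini-Hochberg adjustment over all genes and a threshold of 0.05. The procedure was also run on simulated reads with far fewer changed genes. That run cannot show how the calls here depend on scaling. A percent change is taken from the fitted log2 fold change. edgeR's quasi-likelihood test on the recovered reads called 3498 genes higher and 3434 lower with CCF642, 3324 and 3116 with CCF642-34, and 1764 and 1960 between the compounds. DESeq2 (1.42.0) was a further alternative.

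Same-numbered replicates did not deviate together (correlations -0.03, -0.06 and 0.09 over 9841 genes), so they were not treated as pairs. Squared differences between replicates were 2.29 to 4.64 times those of counting alone, so no library was a copy of another. The subunits and lists were chosen with earlier results of these data known. All subunits were named, and from each list its counts and up to 4 genes, the largest increase and decrease with each compound, or any gene of lists of 6 or fewer, apart from 2 genes named in the text as added. Plasma cell markers were named by the same rule. Genome coordinates and lengths come from GRCh38, not the build of the files.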

Additional observations from a re-analysis of the deposited data

How the results depend on the processing

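The 16 alternatives for each result (another scaling, pseudocount, filter, test or set of samples, a replicate block, and each library left out) gave 384 log2 fold changes of subunits, of which 350 kept direction and call, 18 turned in sign, 12 lost a call and 4 gained one. Library size alone gave 4 subunits lower with CCF642 in place of 1, and log2 fold changes of -0.024 (TCP1), -0.133 (CCT3) and -0.0854 (CCT5) with CCF642, of -0.0789 (CCT3) and -0.0618 (CCT5) with CCF642-34, and of 0.0419 (CCT2) and 0.0236 (CCT5) between the compounds. Library size alone called 2528 genes higher and 4738 lower with CCF642 in place of 3517 and 3457, 2497 and 3972 with CCF642-34 in place of 3285 and 3077, and 2406 and 1488 between the compounds in place of 1760 and 1925. A fit of only the 2 compound groups gave 0.00033 for CCT2. With each library left out in turn, the lone library was assumed to vary like the others. The number of subunits lower then ran from 0 to 2 with CCF642 and from 1 to 2 with CCF642-34, and 1044 or 1168 genes were higher with CCF642-34 than with CCF642 without its replicate 1 or 2. Turned signs in these fits were all of values near 0, with CCT3 between -0.0073 and 0.0097 with CCF642 and between -0.00022 and 0.0236 with CCF642-34, and, between the compounds, CCT2 between -0.0195 and 0.0172, CCT3 between -0.00080 and 0.0224, CCT4 between -0.0381 and 0.0598, CCT5 between -0.0527 and 0.0117 and CCT8 between -0.0339 and 0.0710. The cause of these changes was not tested. Replicate numbers did not pair the libraries. With the replicate block the subunit counts were 3 higher and 1 lower with CCF642, 3 and 2 with CCF642-34, and 1 and 1 between the compounds. With 2 libraries per group, changes of a few percent such as those of CCT5 could not be resolved.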

Other observations

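The R2TP and prefoldin-like complex, which assembles large protein complexes, moved in both directions. Of its 9 listed genes, 4 rose and 3 fell with CCF642 and 3 rose and 3 fell with CCF642-34. Over all genes, 63.1% and 57.6% were called in these comparisons. WDR92 fell by 0.65 and by 0.53 on the log2 scale, while PDRG1 rose by 0.32 and 0.46. Of the 4 chaperonin-like genes, relatives of the CCT subunits, BBS10 fell by 0.50 with CCF642 and by 0.30 with CCF642-34, MKKS fell by 0.22 with CCF642, and CCT6B and BBS12 passed no test.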
